A study of Mus musculus with 3 samples.

Results

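GLI3 peaks were examined around 10 genes that drive or brake the cell cycle. These are the cyclin-dependent kinase (CDK) genes Cdk6 and Cdk4, the cyclin genes Ccnd1, Ccnd2, Ccnd3 and Ccne1, the transcription factor genes Mycn and Myc, and the CDK inhibitor genes Cdkn1a and Cdkn1c. A peak belonged to a gene when its summit lay within 100 kb of an annotated transcription start site (TSS) of the gene or inside the gene body. By this rule 63 of the 17149 listed peaks lay near the 10 genes. Of these, 32 had a false discovery rate (FDR) under 0.05 and are referred to as called peaks. The whole list held 7282 called peaks. Cdk6, Ccnd1, Ccnd2 and Mycn were included as described targets of Hedgehog (HH) signaling in proliferation, and the others for their roles beside them.

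The peaks came from chromatin immunoprecipitation and sequencing (ChIP-seq) of forelimb buds of mouse embryos on a mixed strain background at E10.5, staged at 32 to 35 somites. The endogenous Gli3 allele carried an N-terminal FLAG tag in the embryos, whose genotype label otherwise reads wild type, and an antibody to the tag was used. There were 2 ChIP libraries and 1 input library of chromatin that was not immunoprecipitated, with 2 litters per ChIP and 15 cycles of library PCR. No untagged or other genotype was included, so each enrichment is of ChIP over input and no conditions were compared. The list was deposited under ChIP replicate 1 and was treated as a call over both ChIP libraries, which the study describes but the list does not state. It held 1 value per peak and measure. No value below therefore has a replicate error, no difference was tested, and of the depth of each library only a minimum is known from the methods of the study.

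GLI3 is a zinc finger transcription factor of the HH pathway. Without HH ligand it is cut into a repressor form, and ligand reduces that cut. In the limb bud, HH signaling from the posterior margin is needed both for digit pattern and for growth. Entry into S phase is driven by D-type cyclins, which activate CDK4 and CDK6 to phosphorylate the RB pocket proteins and so release E2F factors. Cyclin E with CDK2 carries the step further, MYC and MYCN raise transcription of growth and cell cycle genes, and the inhibitors p21 (Cdkn1a) and p57 (Cdkn1c) bind cyclin and CDK complexes and block them.

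Sequences are shown first where a match to the GLI consensus, GACCACCCA, lay in or beside a called peak, since this is the motif GLI proteins recognise. The A2C match at Cdk6 and the C7A match at Mettl1 are not printed, since the stretches around them overlap exons, nor is the A2T match at Mettl1, which lay outside the peak. They are given as 61 bp of the GRCm38.p6 genome on the strand of the match, read 5′ to 3′, with the 9 bases of the match in capitals. Differences from the consensus are given as the consensus base, its position from the 5′ end of the consensus, and the base in the genome. The 2 exact matches among these lie beside Ccnd2 and in the Cpne5 intron within reach of Cdkn1a.
Ccnd2, exact match between 2 listed peaks, chr6:127154381-127154441, minus strand: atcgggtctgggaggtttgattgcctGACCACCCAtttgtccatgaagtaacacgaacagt
Ccnd2, A9G match in the peak ranked 363, chr6:127153293-127153353, minus strand: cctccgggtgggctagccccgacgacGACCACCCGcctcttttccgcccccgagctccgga
Ccnd1, A2G match in the peak ranked 558, chr7:144941280-144941340, minus strand: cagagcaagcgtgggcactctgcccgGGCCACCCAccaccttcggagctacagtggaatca
Mycn, G1C match in the intronic peak ranked 6223, chr12:12939154-12939214, plus strand: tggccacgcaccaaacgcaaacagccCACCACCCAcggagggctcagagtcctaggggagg
Cdk6, A9C match 1008 bp from the summit of the peak ranked 48, chr5:3343575-3343635, plus strand: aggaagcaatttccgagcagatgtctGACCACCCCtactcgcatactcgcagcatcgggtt
Cdk4, A5T match in the distal peak ranked 3310, chr10:126972030-126972090, minus strand: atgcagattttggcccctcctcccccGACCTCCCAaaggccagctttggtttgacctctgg
Cdkn1a, exact match in the peak ranked 3966, chr17:29185786-29185846, minus strand: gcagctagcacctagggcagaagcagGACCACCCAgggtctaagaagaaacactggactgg
Cdkn1a, A2C match in the same peak, chr17:29185519-29185579, plus strand: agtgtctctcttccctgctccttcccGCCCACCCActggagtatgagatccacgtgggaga

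The strongest promoter peaks of Cdk6 and Mycn had no GLI match within 250 bp of the summit, and neither did the peak nearest the Ccnd1 TSS or the Cdk4 promoter peak. Their summits are shown for 50 bp to either side on the plus strand, with any E-box (CACGTG) or GC box (GGGCGG or CCGCCC) in capitals. An E-box is the site bound by MYC family dimers and by other basic helix-loop-helix factors, and a GC box is the site of SP family factors.
Cdk6, peak ranked 48, chr5:3342547-3342647, plus strand: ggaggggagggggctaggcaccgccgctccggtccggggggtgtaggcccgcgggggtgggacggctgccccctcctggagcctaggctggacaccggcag
Mycn, peak ranked 601, chr12:12942277-12942377, plus strand: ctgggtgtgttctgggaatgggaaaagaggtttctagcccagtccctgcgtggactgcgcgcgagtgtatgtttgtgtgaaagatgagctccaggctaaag
Ccnd1, peak ranked 600, chr7:144940047-144940147, plus strand: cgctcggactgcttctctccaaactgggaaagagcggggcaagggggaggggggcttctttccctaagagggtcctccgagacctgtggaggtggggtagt
Cdk4, peak ranked 5521, chr10:127063387-127063487, plus strand: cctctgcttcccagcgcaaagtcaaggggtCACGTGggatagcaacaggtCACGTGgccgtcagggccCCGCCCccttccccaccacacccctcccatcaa
The Cdk4 promoter summit had 2 E-boxes and 1 GC box in this stretch, and the other 3 held none.

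Called peaks lay near 8 of the 10 genes, and Ccne1 and Cdkn1c had none. Among all 21938 protein-coding genes, 11580 (52.8%) had a called peak by the same rule. Of the 63 listed peaks, the 32 called made up 50.8% (95% Wilson interval 38.8 to 62.7), beside 42.5% of the whole list, which lies inside the interval. Peaks overlapping a gene's own promoter window, from 2 kb before to 1 kb after a TSS, were called for 7 of the 10 genes. These were Cdk6, Cdk4, Ccnd1, Ccnd2, Ccnd3, Mycn and Myc, and the background share was 17.2% of protein-coding genes (3784). The 10 genes had a median of 3.5 called peaks, and the median of all protein-coding genes was 1. These counts describe a list of genes chosen for their function and with earlier results known, and no test was made of them.

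**Figure D1:**
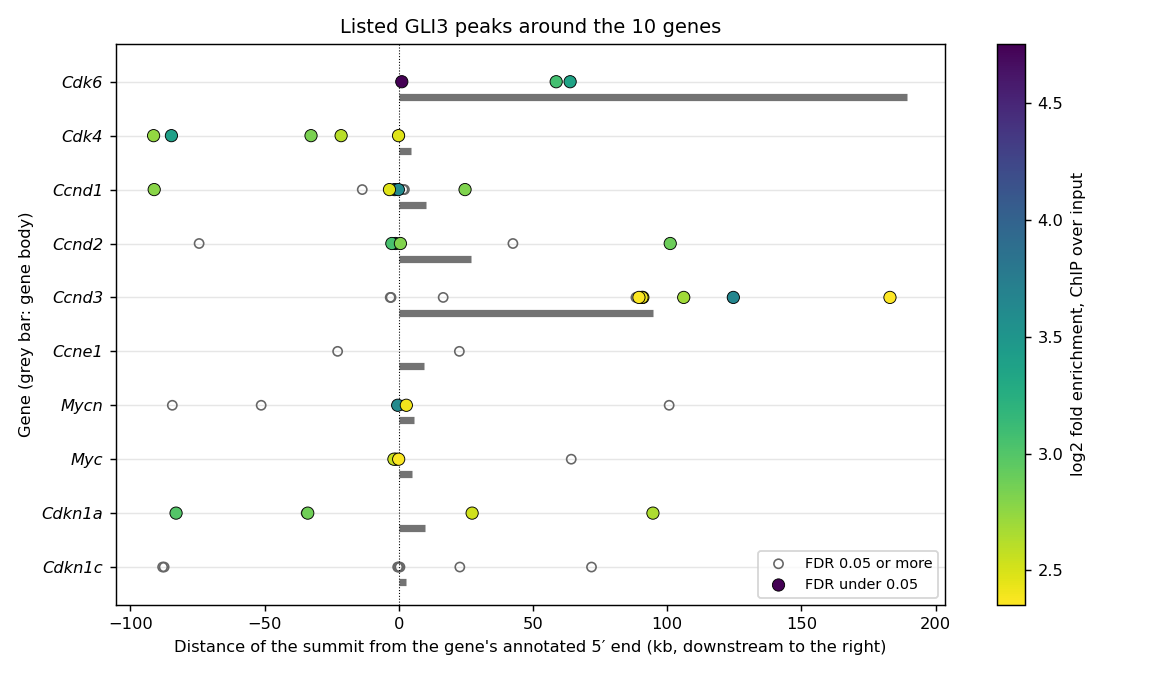
Each point is a listed peak, placed by the distance of its summit in kb from the annotated 5′ end of the gene, with 1 row per gene and the gene body as a grey bar. Filled points are the 32 peaks with an FDR under 0.05, coloured by log2 fold enrichment of ChIP over input, and open points are the other 31. Filled points gather at the 5′ ends of Ccnd1, Ccnd2, Mycn and Myc, and 1 of the 3 of Cdk6 lies at its 5′ end, whereas those of Cdkn1a lie away from the gene and Ccne1 and Cdkn1c have open points only.

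Many of the peaks in reach lay at other genes. Of the 32 called peaks, 13 overlapped the promoter window of the gene itself and 8 that of another protein-coding gene. The other 11, termed distal, overlapped that of no protein-coding gene, and promoters of non-coding transcripts were not considered. The protein-coding TSS nearest to the summit was that of the gene itself for 19 of the 32 (59.4%, 42.3 to 74.5). At Mycn, Myc and Cdk6 no other protein-coding gene had a TSS within 100 kb of the 5′ end of the gene, whereas at Cdk4 there were 11 protein-coding genes within that distance, Cdk4 included. By the transcripts of the basic annotation, summits fell in introns for 13 called peaks, between genes for 12, in a 5′ UTR for 5 and in coding exons for 2. The 12 include the Cdk6 peak ranked 48, whose summit lies inside the annotated Cdk6 gene and in an intron of the comprehensive annotation. In that annotation the Ccnd3 summits ranked 6049 and 6162, counted here as intronic, lie in a non-coding exon. Which gene a peak acts on was not measured.

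Of the kinases, Cdk6, whose product partners D-type cyclins, had the strongest peak of all 10 genes. Cdk6 spans chr5:3341485-3531008 on the plus strand, and all 3 listed peaks near it were called. The peak ranked 48 in the list ran from 3341150 to 3344199 across the annotated 5′ end of the gene, with a log2 fold enrichment of 4.75 and an FDR of 0 as listed. At 3050 bp it was the third longest of the 7282 called peaks, behind those at Ptch1 (7100 bp) and Gli1 (3550 bp). Its −log10 Poisson p-value stood at the ceiling of 100, as did that of 96 called peaks in all. Only 0.659% of called peaks were at least as enriched. Its summit lay 1296 bp before the nearest basic TSS, and the GLI matches A2C and A9C lay 997 and 1008 bp to its sides, beyond the 250 bp searched on either side of each summit.

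The other 2 Cdk6 peaks were 5195 bp apart in an intron, 61010 and 55815 bp downstream of the nearest TSS. They had log2 fold enrichments of 3.36 (rank 998, chr5:3405150-3405799) and 3.07 (rank 1744, chr5:3400000-3400299). Both had an FDR of 0 as listed and neither held a GLI match. Their base composition was unlike that of the promoter peak, with a GC content of 47.7% and 39.5% in the 250 bp to either side of the summit, compared with 60.9% at the promoter.

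Cdk4, the other partner of D-type cyclins, lies at chr10:127063534-127067920 on the plus strand and had 5 called peaks of 7 listed. Only 1 called peak had Cdk4 as its nearest gene. It was the promoter peak ranked 5521 (chr10:127063350-127063649), 97 bp before the TSS, with a log2 fold enrichment of 2.47 and an FDR of 0.0114. Among the genes with a called peak at their own promoter, 80% had one at least as enriched. The strongest peak in reach, ranked 934, had a log2 fold enrichment of 3.40 and a length of 1700 bp, but its summit was in the 5′ UTR of Ctdsp2, a phosphatase gene 84722 bp away. The peaks ranked 2750 (log2 2.84) and 4224 (log2 2.61) lay 13 bp from a TSS of Tsfm, which encodes a mitochondrial elongation factor, and 79 bp from a TSS of Mettl1, a tRNA methyltransferase gene. The Mettl1 peak held the GLI match C7A 21 bp from the summit, and the match A2T lay outside the peak, 221 bp from the summit. The distal peak ranked 3310 (log2 2.74) held the A5T match shown above, 107 bp from its summit, and lay 6550 bp from a TSS of Ctdsp2. The 2 peaks not called had log2 fold enrichments of 2.1 within the Cdk4 gene and 1.96 at Mettl1.

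Among the D-type cyclins, Ccnd1 and Ccnd2 had groups of called peaks stacked upstream of their starts. Ccnd3 had a group of weaker called peaks beside internal TSSs and none at its 5′ end. Ccnd1 lies at chr7:144929931-144939925 on the minus strand and had 5 called peaks of 8 listed. Within 5 kb upstream were the peaks ranked 600 (chr7:144939700-144940799, log2 3.61), 558 (chr7:144940950-144942349, log2 3.65) and 5415 (chr7:144942900-144943549, log2 2.47). Their summits lay 228, 1613 and 3533 bp before the TSS, and their lengths were 1100, 1400 and 650 bp. The middle of these held the A2G match 172 bp from its summit. The peak ranked 2871 (log2 2.82) was in a coding exon of LTO1, 62 bp from its TSS, and the peak ranked 3094 (log2 2.78) was intergenic, 91198 bp upstream of Ccnd1. The 3 peaks not called had log2 fold enrichments of 1.99, 1.96 and 1.78. The first 2 lay in a Ccnd1 intron, and each held a GLI match.

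Ccnd2, at chr6:127125162-127152193 on the minus strand, had 4 called peaks of 7 listed. Those at its start were ranked 363 (chr6:127152000-127153999, log2 3.84), 1856 (chr6:127154500-127155349, log2 3.05) and 2949 (chr6:127151150-127151799, log2 2.81), with summits 2327, 3727 and 532 bp before the nearest TSS and lengths of 2000, 850 and 650 bp. All 3 had an FDR of 0 as listed, and all 3 summits also lay in an intron of the non-coding gene 9330179D12Rik. The highest of them held the A9G match 64 bp from its summit.

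An exact GLI consensus lay in this group, at chr6:127154407-127154415 upstream of the nearest Ccnd2 TSS, but inside no peak. It was 8 bp outside a peak that was not called (rank 15233, log2 1.88, FDR 0.813) and 14 bp from that peak's summit, and 85 bp outside the called peak ranked 1856. Ccnd2 and Ccne1 were the only ones of the 10 genes with an exact consensus within 5 kb of a TSS, compared with 8.88% of protein-coding genes. The exact match near Ccne1 was in one of its own coding exons, 18022 bp from the nearest listed peak.

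The remaining called Ccnd2 peak marked the edge of the rule. It was ranked 2514 (log2 2.89), lay 99950 bp downstream of the nearest Ccnd2 TSS, and was nearer to Fgf23, the gene of a phosphate-regulating hormone, at 21845 bp. The nearest peak left out was also one of Ccnd2, but on its upstream side, 100197 bp from the nearest TSS. That peak was ranked 130, with a log2 fold enrichment of 4.29 and an FDR of 0, above every Ccnd2 peak inside the distance. The 3 Ccnd2 peaks not called had log2 fold enrichments of 1.92, 1.88 and 1.79.

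Ccnd3, at chr17:47505051-47599691 on the plus strand, had the most peaks, with 6 called of 13 listed, but weak binding at the gene. Its called promoter peaks were ranked 6049, 6162 and 6580, with log2 fold enrichments of 2.42, 2.41 and 2.37 and FDRs from 0.0208 to 0.0374. They lay 90931, 90621 and 89476 bp into the gene, beside internal TSSs near its 3′ end, and no called peak lay at the annotated 5′ end. The strongest peak in reach, ranked 557 (log2 3.65), overlapped the promoter window of Usp49, a deubiquitinase gene. Those ranked 3619 (log2 2.70) and 6786 (log2 2.35) lay in the 5′ UTRs of Bysl, a ribosome biogenesis gene, and Tomm6, a gene of mitochondrial import. The peak ranked 6786 was the weakest called peak of the 10 genes. The most enriched peak not called, at 2.31 (rank 7322, FDR 0.0704), was also in reach of Ccnd3, at the start of the Mediator gene Med20. None of the 6 called Ccnd3 peaks held a GLI match. The other 6 peaks not called ran from 1.76 to 2.25.

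Ccne1, the E-type cyclin gene of the group, lies at chr7:38097984-38107534 on the minus strand and had no called peak. Its 2 listed peaks were ranked 8532 (log2 2.23, FDR 0.133) and 9566 (log2 2.17, FDR 0.148), 22793 bp upstream and 22562 bp downstream of the TSS. Its paralog Ccne2 was unlike it, with a called promoter peak ranked 314 whose log2 fold enrichment was 3.90, 64 bp from the TSS.

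Of the Myc family genes, Mycn had a long strong promoter peak and Myc had short weak ones. Mycn lies at chr12:12936093-12941914 on the minus strand, with 2 called peaks of 7 listed. The peak ranked 601 (chr12:12940900-12943449) had a log2 fold enrichment of 3.61 and an FDR of 0 as listed. Its 2550 bp made it the ninth longest of all called peaks (length rank 9), its summit was 413 bp before the TSS, and it held no GLI match, also over its whole length. The peak ranked 6223 (chr12:12938900-12939349, log2 2.40, FDR 0.0208) was in a Mycn intron and held the G1C match 77 bp from its summit. Between and beyond these were 5 peaks that were not called, from 1.93 to 2.3, 2 of them in the promoter window.

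Myc lies at chr15:61985391-61990374 on the plus strand, with 3 called peaks of 4 listed. They were ranked 4073 (chr15:61984100-61984449, log2 2.63), 4679 (chr15:61983400-61983749, log2 2.55) and 6603 (chr15:61985050-61985549, log2 2.37), 1074, 1819 and 49 bp before the TSS, and their FDRs were 0.00417, 0.00706 and 0.0374. Their lengths were 350, 350 and 500 bp, and none held a GLI match. The best Myc peak was thus at a log2 fold enrichment of 2.63 where the best Mycn peak was at 3.61, with no error to set the difference against. The fourth peak (log2 2.28, FDR 0.0704) was in an intron of the non-coding gene Pvt1, 62220 bp downstream.

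The CDK inhibitor genes had no called peak at their own promoters. Cdkn1a, at chr17:29090976-29100727 on the plus strand, had 4 called peaks of 5 listed, and none of the 5 had Cdkn1a as its nearest gene. The peak ranked 2067 (log2 3.0) was in the 5′ UTR of Stk38, a kinase gene. That ranked 2588 (log2 2.87) was 24419 bp from a TSS of Srsf3, a splicing factor gene. It lay 187 bp from a non-coding TSS of AC167363.1, in an intron of that gene. That ranked 4973 (log2 2.52) was in an intron of Rab44, a small GTPase gene. The peak ranked 3966 (chr17:29185450-29186049, log2 2.65, FDR 0.00417) was in an intron of Cpne5, 87767 bp from the nearest Cdkn1a TSS. It was the only called peak of the 32 with an exact GLI consensus in its window, 149 bp from the summit, and it held the A2C match on the other side at 118 bp. The peak not called had a log2 fold enrichment of 1.87.

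Cdkn1c, at chr7:143458339-143461050 on the minus strand, had 7 listed peaks and none was called. Its promoter window held 3 of them, with log2 fold enrichments of 2.22, 2.02 and 1.99 and FDRs of 0.133, 0.438 and 0.461. The highest of the 7, at 2.29 (rank 7644, FDR 0.0704), was in the 5′ UTR of the histone chaperone gene Nap1l4, 88002 bp away. The other 3, also outside the promoter window, had log2 fold enrichments of 2.14, 1.91 and 1.85, and the first of these (rank 10005) held the GLI match C3G. The peak ranked 7644 was among the 5 of the 31 peaks not called that had an FDR under 0.1.

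**Figure D2:**
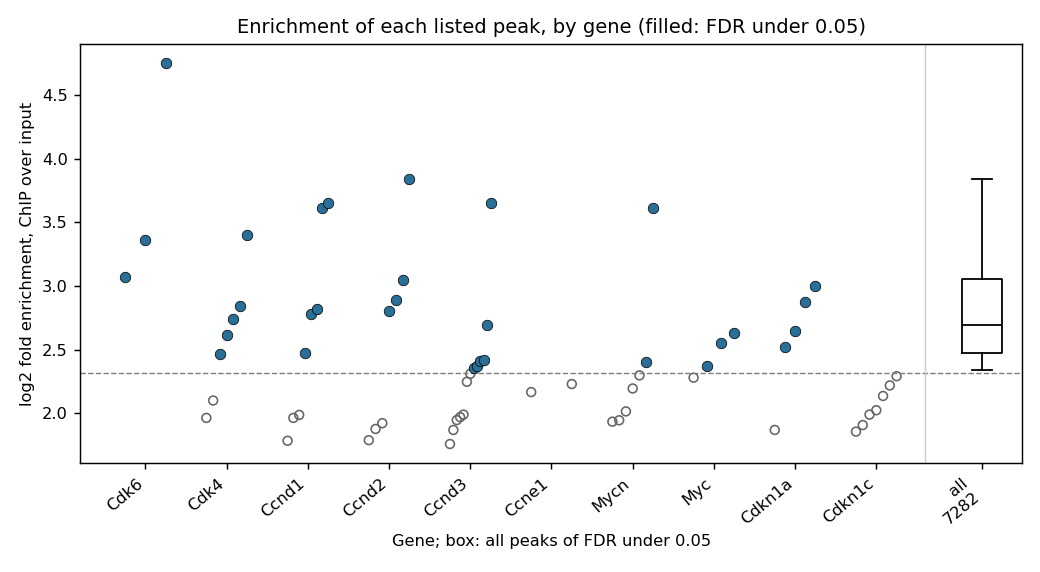
Each point is the log2 fold enrichment of ChIP over input of a listed peak, by gene, filled where the FDR was under 0.05. The box shows the median, quartiles and 5th to 95th percentiles of all 7282 called peaks and the dashed line their lowest value, 2.31. The highest points of Cdk6, Cdk4, Ccnd1, Ccnd2, Ccnd3 and Mycn stand above the upper quartile of 3.06, and all points of Ccne1 and Cdkn1c lie below the line.

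When genes were ordered by the most enriched called peak in their own promoter window, Cdk6 came first at 4.75. Ccnd2 followed at 3.84, Ccnd1 at 3.65 and Mycn at 3.61, then Myc at 2.63, Cdk4 at 2.47 and Ccnd3 at 2.42. The median over the 3784 protein-coding genes with a called promoter peak was 2.73, so the first 4 lay above it and the last 3 below. Of those genes, 0.74% had a value at least as high as Cdk6, 5.02% as Ccnd2, 8.32% as Ccnd1 and 8.93% as Mycn, compared with 60.7% for Myc and 86.9% for Ccnd3. Without replicate values it could not be said which neighbours in this order differed. The HH targets Ptch1 and Gli1 reached higher at their best peaks, at 6.05 and 5.76, whereas the best peak of Hhip, 91646 bp from its TSS, was at 2.55.

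The same 4 genes stood out by how much sequence around their starts was under called peaks. Within 5 kb of their TSSs, called peaks covered 3500 bp at Ccnd2, 3150 bp at Ccnd1, 3050 bp at Cdk6 and 3000 bp at Mycn. Only 0.082% to 0.123% of protein-coding genes had as much as these 4, and 18.8% had any. Myc followed with 1200 bp (1.6% of genes had as much), Ccnd3 with 800 bp and Cdk4 with 300 bp, and Ccne1, Cdkn1a and Cdkn1c had none. At least 3 kb was covered at 27 protein-coding genes, which included Ptch1 (7100 bp) and Gli1 (3550 bp) besides these 4. The 3 kb limit was chosen after the values were seen and Mycn stands exactly on it. With a stricter FDR of 0.01, Cdk6 and Ccnd2 alone of the 10 genes reached 3 kb, and within 2 kb of a TSS Mycn alone did, but under either setting, and within 10 kb, at most 0.406% of genes had as much as any of the 4.

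**Figure D3:**
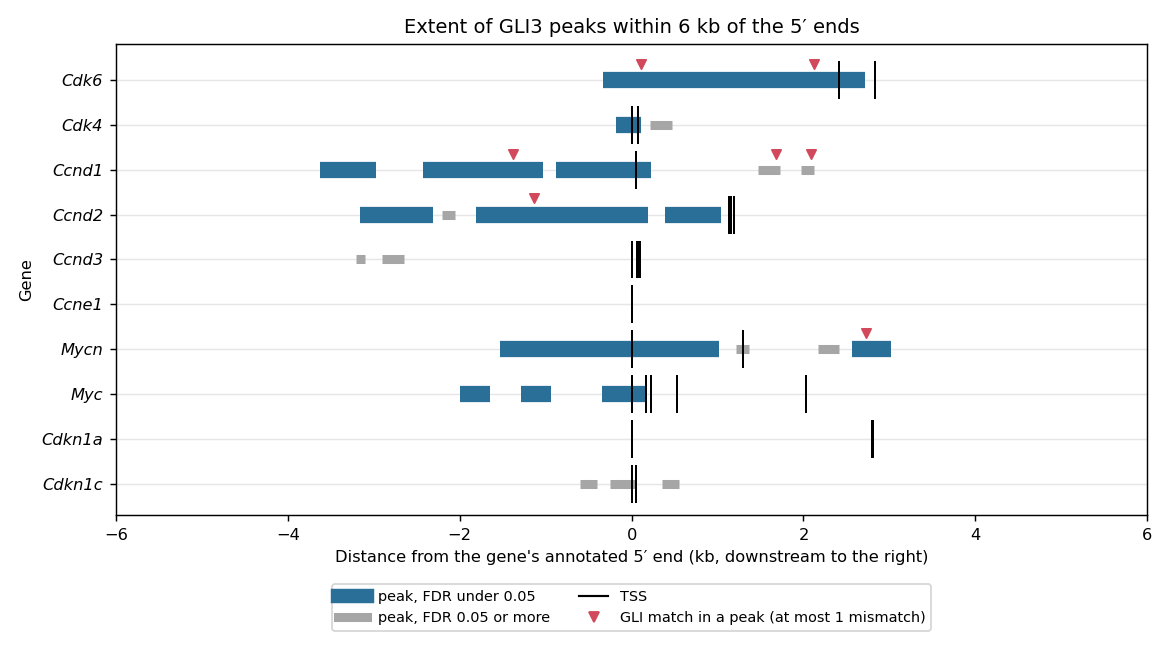
Bars show the extent of listed peaks within 6 kb of the annotated 5′ end of each gene, in kb, with called peaks as thick blue bars and the others as thin grey bars. Vertical lines mark TSSs and triangles mark GLI matches of at most 1 mismatch within peaks. The blue bars cover 3000 bp or more at Cdk6, Ccnd1, Ccnd2 and Mycn, form 3 short pieces at Myc, and are missing at Ccnd3, Ccne1, Cdkn1a and Cdkn1c in this range.

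The cover came from different layouts. At Cdk6 it was a single peak, at Mycn a long peak and a short intronic peak, and at Ccnd1 and Ccnd2 3 peaks each. Of the 32 called peaks, 16 had a summit within 5 kb of a TSS of their gene, and 21 lay upstream and 11 downstream of the nearest TSS of that gene.

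The 32 called peaks were set beside all 7282 in enrichment, length, spacing and position. Their median log2 fold enrichment was 2.79 (95% order-statistic interval 2.55 to 3.05, range 2.35 to 4.75), beside 2.69 for all. The median length was 450 bp (350 to 650), beside 400 bp. At least 1 kb was reached by 6 of the 32 (18.8%, 8.89 to 35.3), beside 5.63% of all, and these were the peaks at Cdk6, Ccnd2, Mycn and Ctdsp2 and the 2 longest at Ccnd1. Another called summit lay within 10 kb of 18 of the 32 (56.2%, 39.3 to 71.8), beside 31.8%. Promoters of any protein-coding gene were overlapped by 21 (65.6%, 48.3 to 79.6), beside 52.6%, a share that the rule, which used distance to the TSSs of these genes, bears on directly. Among the top 1000 ranks were 8 (25%, 13.3 to 42.1), beside 13.7%. Intervals cover counting error over peaks only, and neighbouring peaks of a gene are not independent.

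Motifs were counted in the 250 bp to either side of each summit, on both strands. A GLI match of at most 1 mismatch was present in 6 of the 32 (18.8%, 8.89 to 35.3), beside 20.8% of all called peaks, so the peaks of these genes did not stand apart in this respect. Windows 2 kb to either side of the 32 summits held one in 9.38% (6 of 64), beside 10.7% around all called peaks. By position the matches were in 2 of the 13 peaks at the gene's own promoter (Ccnd1 and Ccnd2), 1 of the 8 at another promoter and 3 of the 11 distal peaks. The share was 17.9% of all called promoter peaks and 24% of all called distal peaks.

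The other motifs gave the following shares. The GC box GGGCGG was found in 59.4% of the 32, beside 57.1% of all, and CCAAT in 53.1%, beside 43.8%. The E-box CACGTG was found in 7 of the 32 (21.9%, 11.0 to 38.8), beside 12.6%, and those 7 were 3 of the 5 Cdk4 peaks, the peak ranked 5415 at Ccnd1, that ranked 2949 at Ccnd2, that ranked 3619 at Bysl and the Cpne5 peak. The ETS motif CCGGAAG was found in 6.25%, beside 12.7%. The cyclic AMP response element TGACGTCA was found in 0 of the 32, for which the Wilson interval reaches 10.7%, beside 2.1% of all. All the background shares but that for the 1 kb length and that for neighbouring summits lay inside the interval of the 32. A match to these letters is not evidence of a bound factor.

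**Figure D4:**
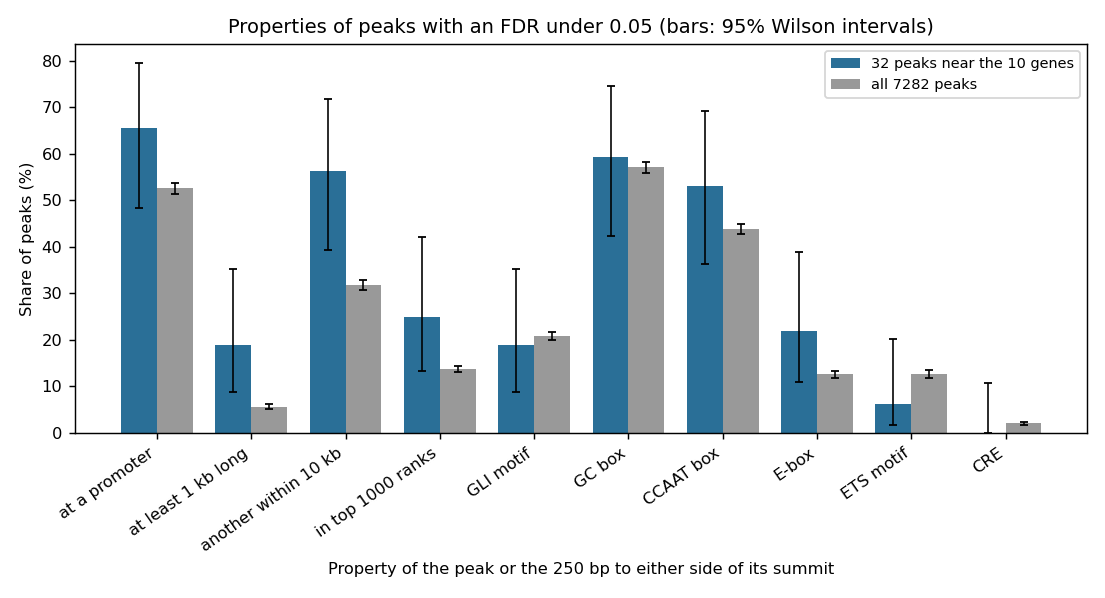
Bars give the share of peaks in percent that had each property, for the 32 called peaks near the 10 genes (blue) and all 7282 called peaks (grey), with 95% Wilson intervals. The blue bars for length of at least 1 kb (18.8%) and a neighbouring summit within 10 kb (56.2%) have intervals above the grey bars (5.63% and 31.8%), and the GLI motif bars are close to each other (18.8% and 20.8%).

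The other genes of the cell cycle machinery were counted by the same rule. Of 8 other G1 and S phase cyclins and kinases, 5 had a called peak in reach and 1, Ccne2, had it at its own promoter. Of 9 mitotic regulators the counts were 8 and 1, and the highest-ranked peak (rank 1787, log2 3.07, in reach of the kinase gene Wee1) lay 5 bp from a TSS of Zfp143. All 6 other CDK inhibitor genes had a called peak in reach, 3 at their own promoters, and the highest ranked, at 590 (log2 3.63), was 41849 bp from Cdkn3. Of 13 pocket protein and E2F genes the counts were 12 and 8, and the highest-ranked peak (rank 282, log2 3.95) was in reach of E2f2 but nearest to Id3, a differentiation inhibitor gene. Of 11 genes of the Myc network 9 had a called peak in reach and 5 at their own promoters, led by Mycl with a promoter peak ranked 1050 (log2 3.34). The share with a called own promoter was thus 70% for the 10 genes, 61.5% for pocket protein and E2F genes, 45.5% for the Myc network, 50% for other CDK inhibitors, 12.5% for other G1 and S phase genes and 11.1% for mitotic genes, beside 17.2% of protein-coding genes. No difference between lists was tested.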

How the data were processed

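GLI3 binding was measured by FLAG ChIP-seq in 2 ChIP libraries and 1 input library. The submitters' processing notes name Bowtie2 2.2.5 and mm10. The authors called peaks with CisGenome on both replicates, and the deposited list was treated as that joint call, which it does not itself state. For each peak the authors deposited an FDR (a q-value), the log2 fold enrichment over input of its highest window, a T statistic (a score with no fixed range, which sets the rank) and a −log10 Poisson p-value, which stops at 100. Peak lengths were multiples of 50 bp.

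From these, peaks were assigned to genes of the GENCODE M21 basic set on GRCm38.p6 with Python 3.11.15, pandas 2.3.3 and scipy 1.17.1, and figures were drawn with matplotlib 3.10.9. All peak ends lay within their chromosomes, and 5 listed peaks on unplaced sequence were not placed relative to genes. Whether the list counts from 0 or 1 is not stated, so positions may be off by 1. Promoters ran from 2 kb before to 1 kb after a TSS (any overlap). For a gene's own promoter all its TSSs in the basic set were used, and for promoters of any protein-coding gene those of protein-coding transcripts. The steps were tested on simulated data.

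The text names the 10 genes, each of their called peaks, the nearest protein-coding gene of such a peak, and the gene with the highest-ranked peak in each other list. Med20, Nap1l4, Pvt1, Cpne5, AC167363.1 and 9330179D12Rik are named outside this rule, as genes at a summit. Also outside it are Zfp143 and Id3, as nearest to a highest-ranked peak of another list, and Gli1 and Hhip as known HH targets. The members and lists were chosen with earlier results of these data known, and the limits of 5 kb and 3 kb were chosen after the values were seen. The study gives a minimum depth for its libraries, but exact read totals were not used here, so the precision they give is unknown. With 1 value per peak and none per replicate, no test was possible.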

Additional observations from a re-analysis of the deposited data

How the results depend on the processing

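Of 32 alternatives tried for 7 results, 24 kept the value within 1.5 times for counts or within its interval for shares and medians. With a reach of 250 kb the 63 listed and 32 called peaks became 110 and 56, and with peaks kept only where the gene had the nearest protein-coding TSS they became 41 and 19. Over every listed peak the median log2 fold enrichment was 2.35 in place of 2.79. With the exact consensus the share with a GLI motif was 3.12% in place of 18.8%, and with a window of 100 bp to either side of the summit it was 9.38%, within the interval. The number of genes with at least 3 kb under called peaks fell from 4 to 2 at an FDR under 0.01 and to 1 within 2 kb of a TSS, settings chosen after seeing the data. Also chosen then were TSSs of the comprehensive annotation (65 listed and 34 called peaks). By construction these alternatives take in more or fewer peaks or sites. The number of genes with a called peak ran from 7 to 9, and the share at promoters from 58.7% to 62.5%. Ranking by Poisson p-value moved the best rank of 6 of the 10 genes by over 1.5 times. It changed which peak was best at Myc, to the peak in the Pvt1 intron that was not called (Poisson rank 2568), and at Cdkn1a, to the Cpne5 peak (Poisson rank 1754). No paired analysis was possible because each peak has 1 value per measure, whether the list was called over both ChIP libraries, as was assumed, or over 1, and leaving out each replicate was not run for the same reason.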
